A study of Mus musculus with 2 samples.

Results

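The polyamine genes examined here were the synthesis enzymes Odc1, Amd1, Srm and Sms, the antizymes Oaz1 and Oaz2, the antizyme inhibitor Azin1 and the acetylase Sat1. They were chosen by gene name among all sequences of the array, with Oazin taken as the older name of Azin1, and this gave 8 genes with 12 sequences out of 24171 named genes and 44170 sequences. The choice of Odc1 against the rest of its pathway rested on the same intensities, so the differences below are a description with no test. RNA came from LT-HSC (long-term haematopoietic stem cells, the marrow cells that sustain blood formation over a long time), sorted from femur marrow of C57/BL6 mice. One group was labelled a wild type control for WASH, an activator of actin nucleation on endosomes, and the other a WASH knockout. The allele, the means of deletion, the age and sex of the mice and any pooling of animals are not given in the sources used here. Each genotype had 1 array, labelled with Cy3, so no replicate error, standard error or p-value could be obtained.

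Polyamines (putrescine, spermidine and spermine) are small cations that bind RNA and DNA and are needed for growth and for the hypusine modification of the translation factor eIF5A. Odc1 makes putrescine from ornithine, Amd1 supplies the aminopropyl donor, Srm makes spermidine and Sms makes spermine. Antizyme, made when polyamines are plentiful, sends the ODC enzyme to the proteasome, Azin1 binds antizyme in place of ODC, and Sat1 acetylates spermidine and spermine for export or breakdown. Odc1 is a textbook target gene of Myc.

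Odc1 was higher on the knockout array with both of its sequences, and Oaz1, its main antizyme, was lower with its single sequence. Srm, Amd1 and Azin1 differed little, and Sat1 was lower by less than 2-fold. Sms and Oaz2 did not exceed the signal of random-sequence probes on the arrays, so no difference can be read for them. In numbers, Odc1 differed by 1.42 on the log2 scale (knockout minus control) and Oaz1 by -1.14, while Srm, Amd1, Azin1 and Sat1 lay between -0.77 and 0.09. No difference was set against variation between mice.

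The arrays had medians of 136.9 (control) and 137.5 (knockout) intensity units, and the probes of random sequence, taken here as background, stood at 71.3 and 75.7. A gene counted as detected (in range) if its higher value of the 2 exceeded the median of that array, and the brightest sequence stood for a gene with several. Washc1, the targeted gene, was at 119 and 107, outside that range, and since the position of its probes in the deleted part is not known it does not check the genotype labels. Of 12 LT-HSC marker genes, 8 were in range, with differences from -1.10 (Mecom, the 1 past 2-fold) to 0.96 (Meis1), while Procr, Fgd5 and Tek were under background on both. The summed level of these 12 was 3765 in the control and 3593 in the knockout, below the sums of the erythroid and granulocyte lists that follow. Markers of other cells differed between the arrays: of 11 erythroid markers in range 9 were at least 2-fold brighter in the knockout. The summed level of all 12 went from 15594 to 83319, mostly from Hbb-b1 (5699 and 43218) and Hba-a2 (5551 and 26801). Of the 9, Car1 and Klf1 were under background in the control, at 37.2 and 69.6. Of 12 granulocyte and monocyte markers in range 4 were lower by 2-fold or more and 1 (Csf1r) was higher by that much. The summed level of all 14 went from 147448 to 58909, mostly from S100a8, S100a9, Ngp and Ltf. No marker of these 2 lists was under background on both arrays. Among 4 megakaryocyte markers in range 2 (Pf4 and Ppbp) were lower by 2-fold or more, among 4 T and NK markers 1 (Klrb1c) was higher by that much, and among 4 B lymphoid markers 0 reached that size. The part of such cells in the values of the polyamine genes was not tested, and in bulk samples more cells of a type and more RNA per cell cannot be told apart.

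The upstream DNA of the genes that differed at least 2-fold in opposite directions, Odc1 and Oaz1, is shown to set out what their start regions share. Each run is the 250 bases before the annotated start, 5′ to 3′ on the gene's own strand, from RefSeq (GRCm38.p6), and Odc1 lies at chr12:17544623-17544872 and Oaz1 at chr10:80826406-80826655, both on the plus strand. Capitals mark matches, on either strand, to 5 motifs: the E-box CACGTG bound by Myc and Max, the TATA box TATAAA, the GC box GGGCGG, the CRE half-site TGACG and the GATA site AGATAA.
Odc1: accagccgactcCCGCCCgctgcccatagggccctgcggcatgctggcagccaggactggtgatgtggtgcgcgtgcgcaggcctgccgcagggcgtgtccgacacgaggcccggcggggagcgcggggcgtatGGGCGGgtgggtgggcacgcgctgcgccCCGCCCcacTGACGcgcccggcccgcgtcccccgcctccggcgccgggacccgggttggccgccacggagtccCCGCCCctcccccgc
Oaz1: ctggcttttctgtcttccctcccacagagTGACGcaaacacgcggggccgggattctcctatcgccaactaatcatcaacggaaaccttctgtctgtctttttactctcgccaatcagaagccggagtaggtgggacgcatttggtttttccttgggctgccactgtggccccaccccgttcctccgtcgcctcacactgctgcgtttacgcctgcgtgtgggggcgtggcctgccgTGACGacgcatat
The Odc1 run held 4 GC boxes and 1 CRE half-site and was 80.0% G or C, and the Oaz1 run held 2 CRE half-sites and was 58.0% G or C, beside a median of 52.4% over 32851 promoters. Neither run held an E-box, TATAAA or AGATAA. Among all promoters cut to the same length, 32.7% held a GC box, 17.8% a CRE half-site, 12.4% TATAAA, 9.99% AGATAA and 6.02% an E-box. Of the 8 genes, 6 had entries in the promoter table. Among their 7 upstream windows, 1 of the 2 for Sms held the E-box, and no window held AGATAA or TATAAA. These matches are letters only and the windows do not reach into the first intron. The motifs do not overlap one another in the 2 runs shown.

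Odc1 encodes ornithine decarboxylase, the rate-limiting and short-lived first enzyme of the pathway. Its brighter sequence (chr12:17551791-17557885, MM9) gave an intensity of 137 in the control and 366 in the knockout, 2.67-fold higher, or 1.42 on the log2 scale. Its other sequence (chr12:17551797-17557885, MM9) gave 46.9 in the control, under background, and 272 in the knockout. Taking the background level in place of the control value, that sequence was at least 3.82-fold higher in the knockout. Both sequences were thus low in the control, at 1.93 and 0.657 times background, and well above it in the knockout, at 4.84 and 3.60 times. The sequences cover nearly the same transcript span, so they are 2 probe sets for 1 gene and not independent samples.

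Over the 16245 detected genes, a size of 2-fold or more was reached by 1042 (6.41%) upward in the knockout and by 1185 (7.29%) downward. Beside this, of the 6 polyamine genes in range, Odc1 passed that size upward (1 gene) and Oaz1 downward (1 gene). Among genes with a mean log2 value within 0.5 of that of Odc1, 6.61% of 5174 were at least 2-fold higher, and among genes as near to Oaz1, 5.84% of 5031 were at least 2-fold lower. For the agreement of sequences, 8336 genes in range had several, and every sequence was at least 2-fold higher in 36 of them (0.432%), Odc1 included. Of the 490 such genes whose brightest sequence was at least 2-fold higher, every sequence passed that size in 7.35%. Only the brightest sequence of a gene had to be in range, and its other sequences were taken at any level. The 8336 genes held 23561 sequences in all and Odc1 held 2, so the shares are not matched to Odc1. These shares come from the contrast by which Odc1 was chosen and are background to its value, not evidence for it. The SD of the difference between sequences of 1 gene, pooled over those 8336 genes, was 0.65 on the log2 scale; it covers probe noise and transcript differences within these arrays and no variation between mice.

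**Figure D1:**
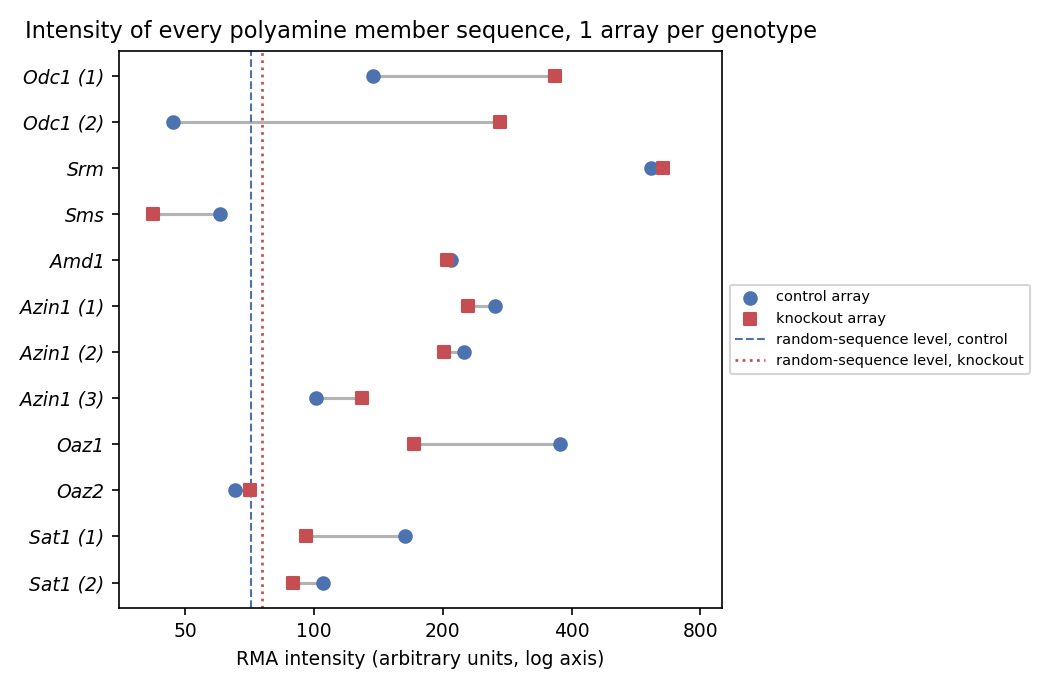
Intensity (log axis, arbitrary units) of the 12 sequences of the 8 polyamine genes, with a circle for the control array and a square for the knockout array, numbered from the brightest where a gene has several, and lines at the background levels of 71.3 and 75.7. Both Odc1 sequences were far higher on the knockout array, Oaz1 and the brighter Sat1 sequence were higher on the control array, and Sms and Oaz2 lay under background on both.

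The other synthesis enzymes did not share the large difference of Odc1. Amd1, S-adenosylmethionine decarboxylase (chr10:40007263-40021978, MM9), gave 209 (control) and 205 (knockout; log2 difference -0.03). Srm, spermidine synthase (chr4:147965627-147968728, MM9), was at 614 and 654, a difference of 0.09, and stood at 8.61 and 8.64 times background. These genes had near-equal values on both arrays, well above background. Sms, spermine synthase (chrX:153883588-153929960, MM9), was at 60.3 and 42.0, under background on both arrays. Set against each of them, the difference of Odc1 was larger by 1.45 for Amd1 and by 1.33 for Srm, and no such value can be read for Sms. Each of these 3 genes had 1 sequence of 3 probes, so agreement between sequences could not be looked at.

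Oaz1 encodes antizyme 1, the abundant form that targets the ODC enzyme for degradation and limits polyamine uptake. Its single sequence (chr10:80289400-80292035, MM9) gave 377 in the control and 171 in the knockout, 2.20-fold lower in the knockout and -1.14 on the log2 scale. Both values were above background, at 5.28 and 2.26 times. Oaz1 and Odc1 thus differed in opposite directions, with a gap of 2.55 between their log2 differences. They had the lowest and highest differences of the 6 members in range, so this gap is the range of the list. Oaz2, the second antizyme gene (chr9:65534002-65538104, MM9), gave 65.3 and 70.7, under background on both arrays. Oaz1 was the member just past the 2-fold size and Sat1, at -0.77, the one just short of it.

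Azin1 resembles the ODC enzyme but has no decarboxylase activity, and it frees ODC by binding antizyme. Its brightest sequence (chr15:38419548-38449009, MM9) gave 266 in the control and 228.5 in the knockout (log2 difference -0.22). A sequence annotated as having a retained intron had 224 and 202 (-0.15). The sequence of transcript variant 1 had 101 and 129, a difference of 0.36, and was outside the detected range. The 3 sequences spanned 0.58 on the log2 scale and did not share a direction, and each was above background on both arrays.

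Sat1, spermidine/spermine N1-acetyltransferase, starts polyamine breakdown. Its brighter sequence (chrX:151647681-151650952, MM9) gave 163 in the control and 95.6 in the knockout, 1.71-fold lower in the knockout and -0.77 on the log2 scale. A sequence of the same span annotated with a retained intron had 105 and 89.4, a difference of -0.23. Both sequences were lower in the knockout, where they stood at 1.26 and 1.18 times background, and the brighter one was in the detected range through its control value alone.

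Set against its pathway, Odc1 was above each of the 5 other members in range. Those 5 had a median log2 difference of -0.22, from -1.14 to 0.09, which left Odc1 1.63 above their median. The median over the 6 members in range was -0.12, beside 0.03 over all genes in range. The low control values of Odc1 lie near background, where a small change in intensity makes a large change in log2. With 50 intensity units added before the log, Odc1 still differed by 1.15, while Oaz1, at -0.95, was short of 2-fold.

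**Figure D2:**
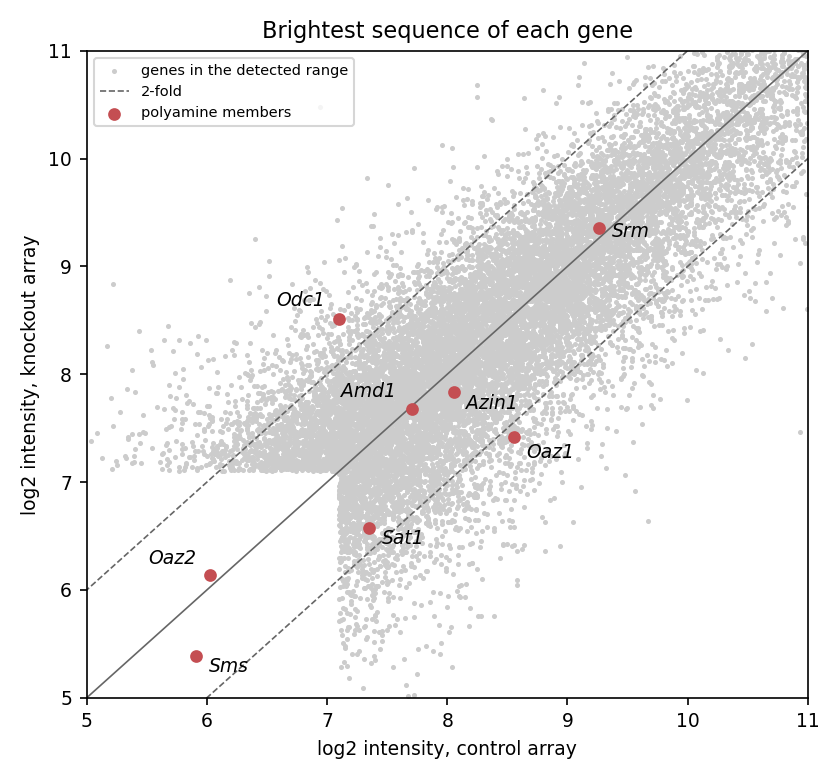
Log2 intensity on the control array (horizontal) against the knockout array (vertical) for the brightest sequence of each of 16245 detected genes (grey, axes limited to the range shown) and of the 8 polyamine genes (red), with dashed lines at 2-fold. Odc1 lies above the upper line and Oaz1 just below the lower one, Srm, Amd1 and Azin1 lie near the diagonal, and Sms and Oaz2 lie outside the detected range.

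Pseudogene copies bear on how firmly these probes can be tied to 1 gene. Gm15645, a pseudogene in the RefSeq table whose array record is described as similar to ornithine decarboxylase (chr7:112911254-113012164, MM9), went from 216 to 521 between control and knockout, by 1.27 on the log2 scale. It was higher in the knockout, as Odc1 was, by a similar size. The Amd1 copy Amd-ps3 had 504 and 433, a difference of -0.22, beside -0.03 for Amd1. The probe sequences were not used here, and whether Odc1 transcripts bind the Gm15645 probes, or the reverse, was not tested.

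The genes whose pair of log2 values lay nearest to that of the brighter Odc1 sequence (Euclidean distance over the 2 arrays) were Sord, Serpina1a, Myo3b, Efcab6 and Eddm3b, at distances from 0.02 to 0.07. With 2 arrays this measure says only that control and knockout levels were alike. Sord went from 136 to 365 and had 1 sequence. The other sequences of Serpina1a, Efcab6 and Eddm3b differed by 0.19, 0.17 and 0.81, and those of Myo3b by -0.80 and 0.16, so in none of these 4 genes did every sequence pass 2-fold, as both did for Odc1. These genes were chosen through their brightest sequences in the same intensities by which Odc1 was chosen, so the contrast is no evidence for Odc1.

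Beyond the 8 genes, a list of 32 genes that supply, oxidise, carry or use polyamines was examined. Of these 30 were measured and 22 were in range. A 2-fold size was reached upward by 1 (4.55%) and downward by 1 (4.55%), beside 6.41% and 7.29% of all genes, and the median difference was -0.03, beside 0.03. At any size 10 genes were higher and 12 lower, beside 8402 and 7839 of all 16245 genes in range.

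The higher gene was Smox, spermine oxidase, which turns spermine back into spermidine. Its brightest sequence went from 1095 to 3039 between control and knockout, by 1.47 on the log2 scale. Of its 7 sequences 6 were higher, 3 of them by 2-fold or more, and they ranged from -0.12 to 1.74, with a mean of 0.77 that is short of 2-fold. Paox, the peroxisomal oxidase of acetylated polyamines, had 3 sequences, the brightest at 0.34 and the others at -0.04 and -0.07. Sat2, a relative of Sat1, differed by -0.21 with its brightest sequence, while another, under background in the control, was at least 1.68-fold higher. With their brightest sequences Smox was thus higher, Sat1 was lower by less than 2-fold, and Paox and Sat2 differed little.

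The lower gene was Eif5a, whose protein carries hypusine made from spermidine. Its brightest sequence had 1467 and 418, a difference of -1.81, and 5 of its 6 sequences were lower, the other 4 of them by -0.31 to -0.75. The remaining sequence, under background in the control, was at least 1.75-fold higher, and the mean over all 6 was -0.46. Dhps and Dohh, the enzymes that make hypusine, differed by -0.65 and -0.09 with their brightest sequences, short of 2-fold, and the other sequence of Dohh was higher by 0.54.

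With their brightest sequences, the supply, salvage and transport genes in range all differed by less than 2-fold. Arg2, the mitochondrial arginase that makes ornithine, had 517 and 497 (-0.06). The S-adenosylmethionine synthetase gene Mat2a differed by -0.05 with its brightest sequence. Its other sequences were under background in the knockout and give bounds only, at least 1.28-fold and 1.16-fold lower. The regulatory subunit gene Mat2b differed by -0.76, with its other sequence at 0.18. Mtap, which recycles the by-product of spermidine and spermine synthesis, had 1439 and 1452 (0.01), and Mri1 of the same salvage route differed by -0.57. Of 9 transport genes in range none was 2-fold different. Slc3a2, the heavy chain of amino acid exchangers, was higher by 0.92 with 1 sequence. Both sequences of the arginine carrier Slc7a1 were lower, by -0.45 and -0.52, as were both of the light chain Slc7a5, by -0.54 and -0.49. Azin2, the other antizyme inhibitor gene, was at 0.66 with the brightest of its 3 sequences. The others were outside the detected range. One was at -0.42, and the dimmest, under background in the knockout, was at least 1.47-fold lower.

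**Figure D3:**
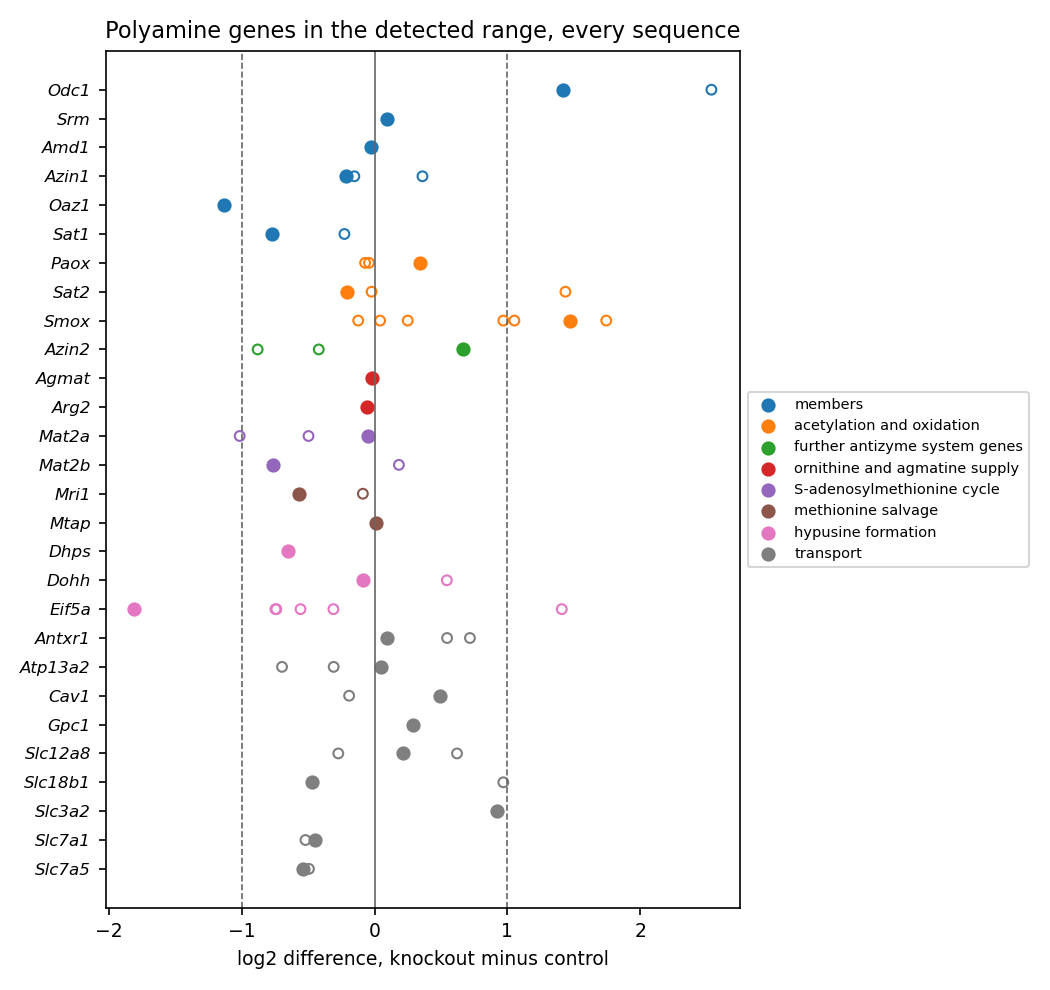
Log2 difference (knockout minus control) of every sequence of the 6 polyamine members and 22 further pathway genes in the detected range, coloured by role, with a filled point for the brightest sequence, open points for the others and dashed lines at 2-fold. Odc1 is the one gene with several sequences that all lie past a 2-fold line, Smox has sequences on both sides of the upper line, and most other genes lie between the lines. Values under background are plotted as they are and not as bounds.

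The members' differences were recomputed under other processing of the same arrays. Odc1 stayed above 2-fold in all 8 treatments of the values, from 1.15 with the offset to 2.54 with its dimmer sequence. That last value rests on a control intensity under background. Oaz1 lay between -1.16 and -0.95, Srm between 0.08 and 0.10 and Amd1 between -0.05 and -0.02. Oaz1, Srm and Amd1 have 1 sequence each, so the mean or dimmest sequence repeats their value, as the series table does. Centring on the median shifts every gene alike, so their ranges come from the remaining treatments. Sat1 lay between -0.78 and -0.23. Azin1 turned from -0.22 to 0.36 with its dimmest sequence.

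**Figure D4:**
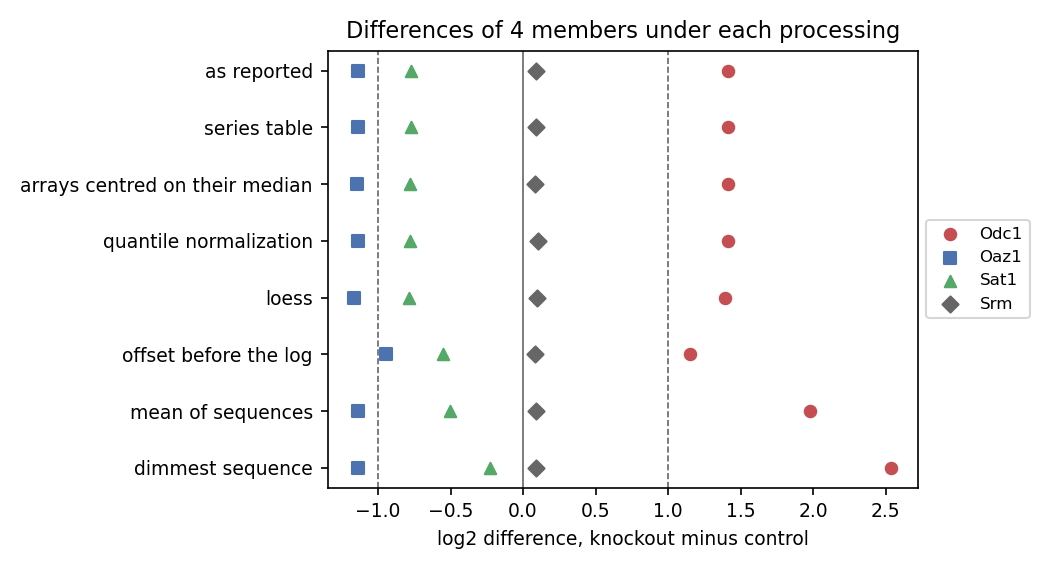
Log2 difference (knockout minus control) of Odc1, Oaz1, Sat1 and Srm as reported and under 7 other treatments of the values, with dashed lines at 2-fold. Odc1 lies right of the upper line in each, Oaz1 lies left of the lower line except with the offset before the log (-0.95), and Srm stays near 0. Oaz1 and Srm have 1 sequence each, so the mean and dimmest sequence repeat their value as reported.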

How the data were processed

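Total RNA of sorted LT-HSC was measured on 1 NimbleGen array per genotype. The authors deposited 1 intensity per sequence on a linear scale, made with RMA per the submitters' processing notes (version not given in the sources used here). RMA corrects background, draws the distributions of arrays together and summarises probes, so a shift of most genes one way would not be visible. Per the file headers and columns, 44155 of 44170 sequences had 3 probes and coordinates are on MM9. A deposited series table held 34218 of these sequences, leaving out any with a value under 50, and differed by at most 0.0412 units.

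Intensities were taken to log2 without further scaling, and differences are knockout minus control (Python 3.11.15, pandas 2.3.3). Names were updated through RefSeq gene identifiers (21583 matched). All 8 members were named, with every sequence, and from the wider list those in range, 2-fold ones first. A value at or below the random-sequence level (5000 probes) gave a bound. Sizes were counted at 2-fold, with no test. Counting was run on simulated data with known folds, which checks the computation and not whether any difference reported here is real. Members and lists were chosen with earlier results of these data known. The number of arrays limits the precision.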

Additional observations from a re-analysis of the deposited data

Results flagged for a closer look

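Gm15645, a pseudogene described as similar to ornithine decarboxylase and not among the 8 polyamine genes, carried a signal of 521 on the knockout array, above the 216 of the control array. It drew attention because it lies outside the genes compared and differed by 1.27 on the log2 scale, beside 1.42 for the brighter sequence of Odc1. Whether its probes bind Odc1 transcripts was not tested.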

How the results depend on the processing

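No paired analysis was possible because a single array stands for each genotype. The alternatives for the 8 genes and the lists were set at the outset, and of these 156 recomputed values 130 stayed near the reported one (a difference by less than the within-gene SD of 0.65, a count within 1.5 times) and 26 moved. Some values could not move: 5 of the 8 genes have 1 sequence, which the mean or dimmest sequence repeats. The series table repeats the intensities of the sequences it holds. Sms and Oaz2, under background on both arrays, are in this tally too. Of the 8 genes, Odc1 and Oaz1, which differed by 2-fold or more, kept their sign. For 22 wider pathway genes and Gm15645, which were recomputed by a choice made after seeing the data, 150 of 161 values stayed near the reported one. Genes with a single sequence and the series table limit this tally in the same way. The sign turned in 15 of the 161, over 11 genes, 10 with the dimmest sequence and 5 with the mean of sequences. Of differences of 2-fold or more, 2 turned, both with the dimmest sequence: Smox went from 1.47 to -0.12 and Eif5a from -1.81 to 1.41, the latter from a control value under background. The smaller ones included Azin2, from 0.66 to -0.88 and -0.21 (mean), Slc18b1, from -0.47 to 0.97 and 0.25 (mean), Mat2b, from -0.76 to 0.18, and Cav1, from 0.49 to -0.19. The -0.88 of Azin2 rests on a knockout value under background. With the dimmest sequence Odc1 differed by 2.54 and lay 2.57 above the median of the other members, against 1.42 and 1.63. In the counts that follow, a named fold takes the place of 2-fold. Higher members numbered 0 at 3-fold. They numbered 0 at 2-fold where both values had to exceed 2 times the random-sequence level, since Odc1 was at 1.93 times it in the control. Lower members numbered 2 at 1.5-fold, 0 at 3-fold and 0 with the offset. In the wider list the higher genes numbered 3 at 1.5-fold, 0 at 3-fold and 2 with no filter on dim genes. With the dimmest sequence and with the mean of sequences they numbered 0. The lower genes of that list numbered 3 at 1.5-fold, 0 with the dimmest sequence and 0 with the mean of sequences. Against 1042 genes higher and 1185 lower over all genes, the counts were 3004 and 2972 at 1.5-fold, 242 and 280 at 3-fold, 538 and 676 with the 75th percentile filter, 479 and 588 above 2 times the random-sequence level, and 573 and 735 with the offset. With the mean of sequences 677 genes were higher. A stricter size or filter can only lower a count. The median over the members ranged from -0.15 to 0.09 and that of the wider list from -0.05 to 0.07, so neither has a settled sign.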
